A study of Mus musculus with 7 samples.

Results

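The p53 pathway and cell senescence genes Cdkn1a, Cdkn2a, Cdkn2b, Mdm2, Trp53inp1, Zmat3, Ccng1, Phlda3, Btg2 and Gdf15 were followed in bile duct epithelium of mice in which regulatory T cells were targeted with a toxin. These 10 genes were taken by name, as a set list, from the 24552 gene symbols of the count table. Cholangiocytes positive for EpCAM, the surface protein by which bile duct cells are sorted, came from livers of mice of genotype Foxp3GFPDTR, and their RNA was read by 3′-end sequencing in 7 libraries. In this strain Foxp3, the gene of regulatory T cells, drives a green fluorescent protein and the receptor through which diphtheria toxin enters cells. The DT group (3 libraries) received 1 µg/kg of diphtheria toxin and the PBS group (4 libraries) received saline, each into the abdomen every 48 h. All mice of both groups carried the transgene and ate DDC, a compound that injures bile ducts, for 10 days, so that no uninjured group was compared here. The labels give no age, and they do not say that each library was a separate animal. Libraries are named by the numbers in the labels, as DT 1 to 3 and PBS 1 to 4.

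The transcription factor p53 is held at a low level by Mdm2, a ubiquitin ligase that marks it for breakdown and is itself made from a p53 target gene. When DNA damage or other stress frees p53, it switches on Cdkn1a, whose product p21 blocks cyclin-dependent kinases and stops the cell cycle, along with genes of repair, redox balance and cell death. A lasting arrest through p21, or through the inhibitors made from Cdkn2a and Cdkn2b, is called senescence, and senescent cholangiocytes are known from cholestatic bile duct disease.

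The sequence that p53 binds is made of a pair of adjacent 10-base elements, each called a decamer. Start-site windows of 300 bases (250 before to 50 after the start) from RefSeq, build GRCm38.p6, were at hand for 8 of the 10 genes, with 11 windows in all, and were searched on both strands. The 20-base consensus with at most 1 mismatch was found in 2 of the 11 windows, at a start of Cdkn1a and at the start of Ccng1, and in 0.0883% of all 32851 windows. Both windows are shown because they alone of the 11 held such a match, each with 1 mismatch, and the match is in capitals. Trp53inp1 and Zmat3 had no window, and sequence outside the windows was not searched for any member. The Cdkn1a window lies at chr17:29090729-29091028 on the plus strand and the Ccng1 window at chr11:40755237-40755536 on the minus strand, each written from 5′ to 3′ along the gene.
Cdkn1a: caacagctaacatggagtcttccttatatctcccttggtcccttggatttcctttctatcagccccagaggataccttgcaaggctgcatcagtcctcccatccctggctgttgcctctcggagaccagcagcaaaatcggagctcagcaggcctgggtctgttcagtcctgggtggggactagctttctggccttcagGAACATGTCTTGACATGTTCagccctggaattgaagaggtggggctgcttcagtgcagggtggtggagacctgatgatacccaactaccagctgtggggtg
Ccng1: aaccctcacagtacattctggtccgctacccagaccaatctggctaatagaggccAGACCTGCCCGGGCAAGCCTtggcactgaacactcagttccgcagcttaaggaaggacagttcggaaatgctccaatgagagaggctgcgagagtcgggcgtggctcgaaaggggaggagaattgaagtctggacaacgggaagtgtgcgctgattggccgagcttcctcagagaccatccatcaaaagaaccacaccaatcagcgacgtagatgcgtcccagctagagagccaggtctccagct
The Cdkn1a element, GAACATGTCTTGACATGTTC, runs from 51 to 32 bases upstream of the first of 2 RefSeq start sites, which lie 2790 bases apart, and the window of the second start held no match. The Ccng1 element, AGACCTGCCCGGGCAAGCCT, runs from 195 to 176 bases upstream. A single decamer without mismatch, found in 8.36% of all windows, was present in the windows of Cdkn1a, Ccng1 and Mdm2. In the Mdm2 window, chr10:117710709-117711008 on the minus strand, it read GAACTTGCCT and ran from 186 to 177 bases upstream. A match in these windows is a description of letters, and the count table was made on another build, mm9, so no coordinate was joined to the counts.

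Total counts ran from 4805018 to 6285624 per library, and 5419 (DT 1) to 8361 (PBS 4) genes had a count above 0. Values of 0 were common at moderate depth. For genes with a mean of 200 to 500 counts in a group's remaining libraries, a library had 0 in 25.6% of cases, a share of 44.2% in DT 1 and 10.8% in PBS 4. All 29 listed cholangiocyte markers had counts, and together they took 2.65% to 3.31% of each DT library and 2.46% to 2.96% of each PBS library. Foxp3 had 0 counts in all 7 libraries. Hepatocyte markers took 0.403% to 0.589% of DT libraries and 0.234% to 0.409% of PBS libraries, with 24 of 38 detected. Leukocyte markers took 0.0843% to 0.153% of DT libraries and 0.0168% to 0.265% of PBS libraries, with 21 of 36 detected. Their sum was 843, 1534 and 1343 CPM in DT 1 to 3, against 168, 298, 309 and 2650 CPM in PBS 1 to 4. Every DT library thus lay above PBS 1 to 3 and below PBS 4. Ptprc, which encodes the pan-leukocyte protein CD45, had 0, 703 and 1 counts in DT 1 to 3 and 0, 0, 0 and 86 in PBS 1 to 4. Of 24 stromal and endothelial markers 15 had counts, and the sums of both groups overlapped. Sex-linked reads moved with treatment. Y-linked genes were at 279, 196 and 155 CPM in DT 1 to 3, against 398, 0, 0 and 0 CPM in PBS 1 to 4, while Xist, made from the inactive X of females and picked with its values known, had 453, 0 and 0 counts in DT 1 to 3, against 630, 12089, 17627 and 10420 counts in PBS 1 to 4. DT 1 and PBS 1 held both kinds of read, and apart from these 2 libraries sex-linked reads and treatment cannot be told apart. The part of these differences in the results that follow was not tested beyond the fits named beside them.

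None of the p53 and senescence genes changed past the threshold between DT and PBS cholangiocytes. Cdkn1a, Mdm2 and Trp53inp1 had higher mean levels in DT, Gdf15 had a lower mean level in DT, and Btg2 had nearly the same mean in both groups, while Cdkn2a was not detected in any library. Of the 10 genes, 8 passed the filter on low counts and were tested, 6 of them with positive and 2 with negative fold changes. With the hepatocyte marker score as a covariate 2 were positive and 6 negative, in a fit that moved the median of all tested genes to -0.49. The edgeR quasi-likelihood test with Benjamini-Hochberg adjustment called 0 of these 8, where it called 0.0390% of all 7688 tested genes, and each of the 8 had an adjusted p of 1.00. At an unadjusted p below 0.05 the count was also 0 of 8, against 107 higher and 162 lower among all tested genes. DESeq2 called 0 of 8, where it called 1.43% of the genes to which it gave an adjusted p, and limma-voom called 0 of 8, where it called 0.156%. For each of the 8 genes the CPM values (read counts relative to the TMM-scaled library size) of both groups overlapped, where 6.31% of all tested genes had no overlap.

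**Figure D1:**
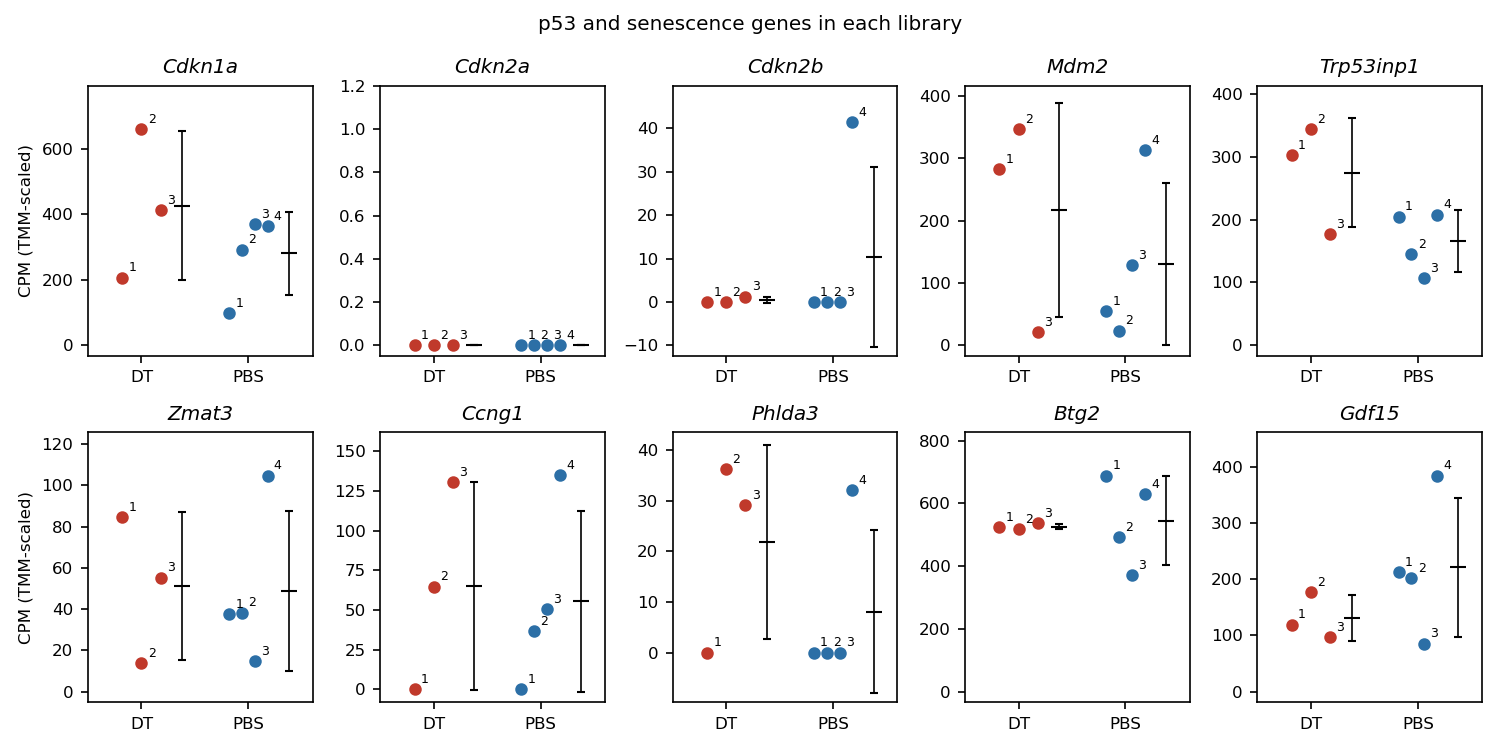
CPM on TMM-scaled library sizes (vertical axis, a separate linear scale in each panel) of the 10 genes in the DT libraries (red, n = 3) and the PBS libraries (blue, n = 4), with the number of each library beside its point and the mean with SD as a black bar. Both groups overlap in every panel, Cdkn2a is at 0 throughout, and PBS 4 is the highest PBS library for 7 of the 9 genes with counts in PBS.

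Cdkn1a, which encodes the cyclin-dependent kinase inhibitor p21, was read in all 7 libraries. It stood at 206, 660 and 412 CPM in DT 1 to 3, against 98.2, 292, 370 and 363 CPM in PBS 1 to 4. DT 2 and DT 3 lay above every PBS library, but DT 1 lay below PBS 2, PBS 3 and PBS 4. The mean was 426 ± 227 CPM in DT (SD, n = 3) and 281 ± 127 CPM in PBS (SD, n = 4). The log2 fold change was 0.60 (SE 0.48) by edgeR, with an adjusted p of 1.00 and a 95% interval of -0.36 to 1.57. The lowest library of each group, DT 1 and PBS 1, was also the one with the fewest genes read in that group (5419 and 5967). The log2 fold change was 0.14 without DT 2 and 0.31 without PBS 1, and with the hepatocyte marker score as a covariate its sign turned, to -0.45. With Y-linked reads as a covariate it was 2.12, where the median of all tested genes was 0.67. In RNA from many cells, fewer cells with a transcript and less of it per cell cannot be told apart.

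The INK4 genes, whose products inhibit the kinases Cdk4 and Cdk6, were at or near 0. Cdkn2a, which encodes the arrest protein p16 and, in another reading frame, the Mdm2 inhibitor p19Arf, had 0 counts in each of the 3 DT and 4 PBS libraries. By counting error alone a count of 0 allows up to 3 counts per library, which is 0.498 to 0.563 CPM in DT and 0.582 to 0.618 CPM in PBS, a limit that leaves out the frequent values of 0 at higher levels. Cdkn2b, which encodes the p15 protein, had 0, 0 and 7 counts in DT 1 to 3, against 0, 0, 0 and 210 counts in PBS 1 to 4. A single library, PBS 4, thus held 96.8% of its reads, and the gene was not tested. These counts do not show whether the inhibitors were absent from the cells.

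Among the genes that act back on p53, Mdm2 varied widely from library to library. It stood at 283, 347 and 21.3 CPM in DT 1 to 3, against 54.5, 23.5, 128 and 313 CPM in PBS 1 to 4. The highest DT library was 16.2-fold above the lowest, and the highest PBS library was 13.3-fold above the lowest, so that each group covered nearly the whole range of the other. The means were 217 ± 172 CPM in DT (SD, n = 3) and 130 ± 130 CPM in PBS (SD, n = 4), and the log2 fold change was 0.74 (SE 0.84, edgeR adjusted p = 1.00). Without PBS 4 it was 1.65, without DT 3 it was 1.27, and without DT 2 it was 0.22. With the Y-linked covariate, which leaves DT compared with PBS 1 alone, it was 1.99.

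Trp53inp1 encodes a nuclear and autophagy protein that helps p53 towards cell death and arrest. It stood at 303, 344 and 177 CPM in DT 1 to 3, against 205, 145, 107 and 208 CPM in PBS 1 to 4. DT 1 and DT 2 lay above all PBS libraries, while DT 3 lay among them. The means were 275 ± 87.1 CPM in DT (SD, n = 3) and 166 ± 48.9 CPM in PBS (SD, n = 4), and the log2 fold change was 0.72 (SE 0.58, edgeR adjusted p = 1.00), with a 95% interval of -0.45 to 1.90. Its sign held in all 7 fits that left out 1 library, between 0.53 and 0.95.

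Zmat3, a zinc finger protein that binds RNA and takes part in splicing control downstream of p53, stood at 84.7, 13.7 and 55.2 CPM in DT 1 to 3, against 37.5, 38.2, 14.8 and 105 CPM in PBS 1 to 4. The groups spanned almost the same range. The log2 fold change was 0.07 (SE 2.31, edgeR adjusted p = 1.00), and it was negative in 4 of the 7 fits that left out 1 library, with values from -0.52 (without DT 1) to 0.76 (without PBS 4). Ccng1, which encodes cyclin G1, a partner of a phosphatase that activates Mdm2, stood at 0, 64.6 and 131 CPM in DT 1 to 3, against 0, 36.5, 50.7 and 135 CPM in PBS 1 to 4. It had 0 counts in DT 1 and PBS 1 and between 185 and 740 counts in each of the other libraries. The log2 fold change was 0.23 (SE 2.25, edgeR adjusted p = 1.00), with -0.78 without DT 3, -0.20 without PBS 1 and 1.16 without PBS 4. The groups of Cdkn1a and Ccng1, whose windows are printed above, overlapped like those of all 8 tested members, where 6.31% of all tested genes had no overlap.

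Phlda3, a p53 target whose product restrains the kinase Akt at the membrane, had 0, 193 and 165 counts in DT 1 to 3, against 0, 0, 0 and 163 counts in PBS 1 to 4. It was read in 2 of 3 DT libraries and 1 of 4 PBS libraries, at 29.1 to 36.2 CPM where it was read. Its log2 fold change was 1.43 (SE 3.32) by edgeR, with an adjusted p of 1.00 and a 95% interval of -5.26 to 8.13, and without PBS 4 it was not tested. For Phlda3, Zmat3 and Ccng1 the difference between DT and PBS was within the spread between libraries.

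Btg2, an antiproliferative gene that p53 induces and that is also an immediate early gene, stood at 524, 518 and 536 CPM in DT 1 to 3, against 688, 492, 372 and 629 CPM in PBS 1 to 4. The DT libraries lay close together, in the middle of the PBS range. The means were 526 ± 9.17 CPM in DT (SD, n = 3) and 545 ± 142 CPM in PBS (SD, n = 4), and the log2 fold change was -0.05 (SE 0.35, edgeR adjusted p = 1.00), with a 95% interval of -0.77 to 0.66. This was the narrowest interval among the 8 tested genes. The sign of a value this close to 0 turned without PBS 1 (0.071) and without PBS 4 (0.02).

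Gdf15, a secreted stress hormone of the TGF-beta superfamily that p53 and other stress pathways induce, stood at 119, 177 and 96.5 CPM in DT 1 to 3, against 213, 202, 85.3 and 385 CPM in PBS 1 to 4. All DT libraries lay below PBS 1, PBS 2 and PBS 4, but above PBS 3. The means were 131 ± 41.6 CPM in DT (SD, n = 3) and 221 ± 123 CPM in PBS (SD, n = 4), and the log2 fold change was -0.76 (SE 0.68, edgeR adjusted p = 1.00), with a 95% interval of -2.13 to 0.62. It stayed negative in all 7 fits without 1 library, between -1.04 (without DT 2) and -0.36 (without PBS 4).

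**Figure D2:**
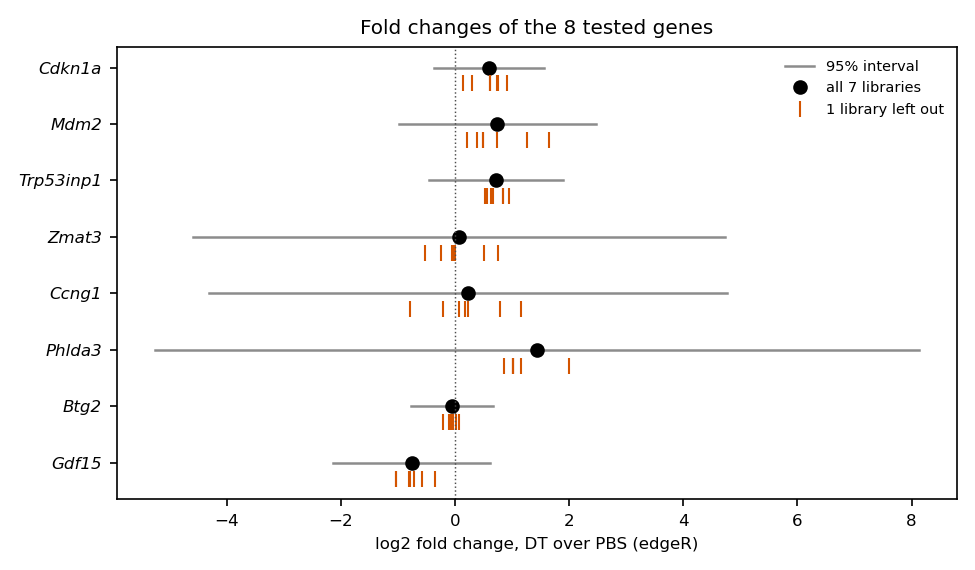
Log2 fold change of DT over PBS (horizontal axis) for the 8 tested genes, with the edgeR value on all 7 libraries as a dot, its 95% interval as a grey line and the values with 1 library left out as orange ticks. All 8 intervals include 0, the narrowest being that of Btg2 (-0.77 to 0.66) and the widest that of Phlda3 (-5.26 to 8.13).

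The spread between libraries differed strongly among the members. In DT the coefficient of variation was 1.74% for Btg2, 31.7% for Trp53inp1, 31.8% for Gdf15, 53.3% for Cdkn1a and 79.5% for Mdm2. In PBS it was 26.1% for Btg2, 29.4% for Trp53inp1, 55.7% for Gdf15, 45.1% for Cdkn1a and 100.0% for Mdm2. For all genes with a group mean of 100 to 500 CPM, the median coefficient of variation was 47.2% in DT and 48.9% in PBS, so that Mdm2 lay above and Trp53inp1 below that median in both groups. For genes at 500 CPM or more the medians were 21.8% in DT and 25.3% in PBS. For genes at 20 to 100 CPM they were 96.3% in DT and 105% in PBS. The lower-read members Zmat3, Ccng1 and Phlda3 stood at 69.7%, 100.3% and 88.1% in DT, and at 79.5%, 102.8% and 200% in PBS. The spread of Mdm2 was thus not the largest among the members.

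**Figure D3:**
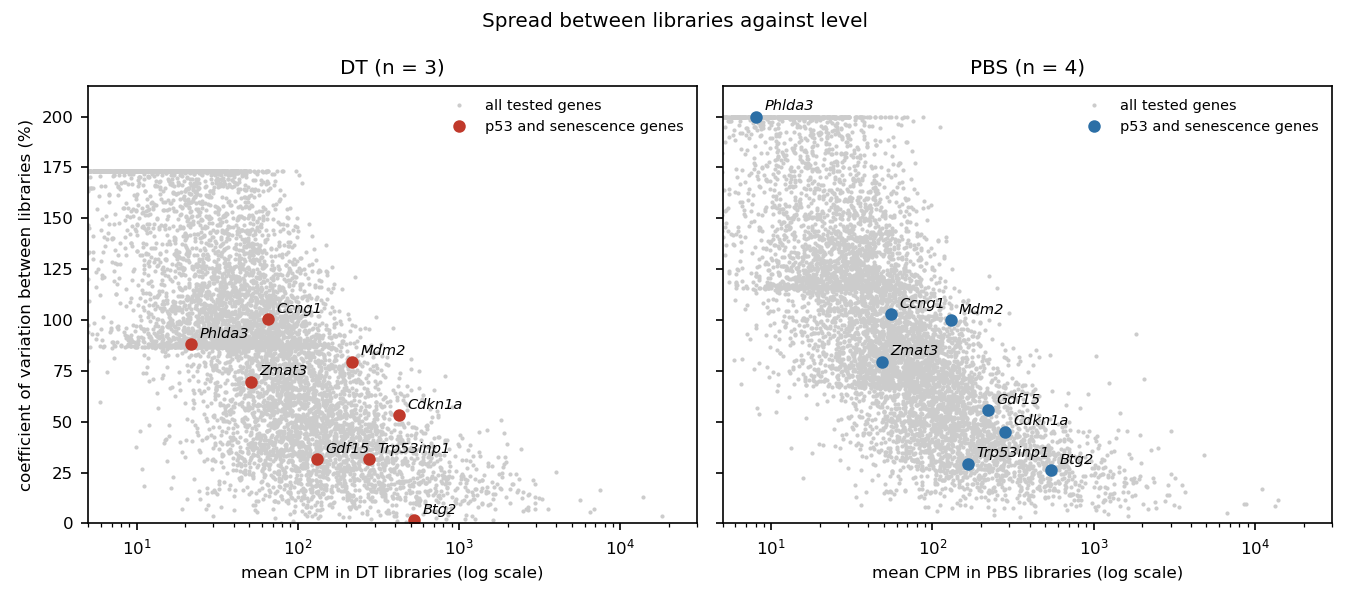
Coefficient of variation between libraries in percent (vertical axis) against mean CPM on a log scale (horizontal axis) for DT (left, n = 3) and PBS (right, n = 4). Grey points are all tested genes and coloured points the members. Mdm2 lies above the median of genes at 100 to 500 CPM in both groups (79.5% in DT and 100.0% in PBS), and Btg2 in DT lies at 1.74%.

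The genes whose pattern over the 7 libraries was most like that of Cdkn1a were taken from 729 other well-read genes (counts in every library and a mean log2 CPM of at least 8). Likeness was the mean absolute difference between log2 CPM values, each centred on its own mean. The nearest were Kifc3, which encodes a kinesin motor (0.11), Prom1, which encodes the duct surface protein prominin 1 (0.26), and Rps13, which encodes a ribosomal protein (0.26), where the median candidate lay at 0.71. Kifc3 stood at 179, 492 and 324 CPM in DT 1 to 3, against 92.0, 229, 246 and 290 CPM in PBS 1 to 4. Like Cdkn1a, each of the 3 was lowest in DT 1 and in PBS 1 of its group and highest in DT 2. The nearest to Mdm2 were Uqcrq (0.85), Rab10 (1.00) and Ugcg (1.04), with a median candidate at 1.53. This difference grows with a gene's own spread, and Mdm2 (average log2 CPM 7.39) lay below the limit of 8 set for candidates. The values for Mdm2 and Cdkn1a therefore cannot be compared with each other.

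Other p53 target genes were described by lists of arrest and repair genes and of cell death genes. Of 35 listed arrest and repair targets 23 were tested, 13 with positive and 10 with negative fold changes, and 0 passed in either direction by edgeR, DESeq2 or limma-voom, with 0 at an unadjusted p below 0.05. Their median log2 fold change was 0.31, that of the 8 tested members was 0.42 and that of all tested genes was -0.02. The median of the members was 0.19 without PBS 1, 0.23 without DT 2, 0.23 without PBS 2, 0.76 without PBS 4 (7 members tested) and -0.47 with the hepatocyte score added. With the Y-linked covariate, which leaves DT compared with PBS 1 alone, the median of the members was 1.22. The 4 with the highest CPM did not share a direction. Ddit4, which encodes the mTOR inhibitor Redd1, was at 569 ± 134 CPM in DT and 331 ± 171 CPM in PBS (SD, n = 3 and 4). Rps27l, a ribosomal protein paralogue induced by p53, was at 380 ± 129 CPM in DT and 224 ± 72.0 CPM in PBS, and its likeness to Rps27 could affect the assignment of reads. Ier5, an immediate early gene, was at 431 ± 211 CPM in DT and 665 ± 165 CPM in PBS. Sfn, which encodes the 14-3-3 sigma protein that holds cells before mitosis, was at 389, 352 and 365 CPM in DT 1 to 3, against 702, 479, 454 and 480 CPM in PBS 1 to 4, without overlap (log2 fold change -0.52, SE 0.38, edgeR adjusted p = 1.00).

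Ninj1, a p53 target that encodes a plasma membrane protein and that was picked with its values known, was the other gene without overlap, so that these were 2 of the 23 tested in that list, where the share among all tested genes was 6.31%. It stood at 433, 186 and 154 CPM in DT 1 to 3, against 0, 21.9, 82.4 and 114 CPM in PBS 1 to 4 (log2 fold change 2.24, SE 1.29, edgeR adjusted p = 1.00). Its direction was thus opposite to that of Sfn.

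Of 21 listed cell death targets of p53, 12 were tested, 6 with positive and 6 with negative fold changes, and 0 passed in either direction by edgeR, DESeq2 or limma-voom, with 0 at an unadjusted p below 0.05 and a median log2 fold change of 0.05. Those with the highest CPM were Ctsd, a lysosomal protease gene (354 ± 124 CPM in DT and 423 ± 329 CPM in PBS), Perp, a desmosome gene (105 ± 41.9 CPM in DT and 156 ± 42.6 CPM in PBS), Pmaip1, which encodes the BH3 protein Noxa (88.4 ± 56.7 CPM in DT and 117 ± 89.3 CPM in PBS), and Casp8, an initiator caspase gene (116 ± 105 CPM in DT and 87.7 ± 83.6 CPM in PBS). Their groups overlapped, and Ctsd was highest in PBS 4, at 4471 counts. Bax, the pore-forming death gene, was chosen after its values were seen and was too low to be tested. It had 189, 6 and 300 counts in DT 1 to 3 and 0 counts in each of the 4 PBS libraries. Among all 11487 genes with any count, 38 genes (0.331%) were likewise at 0 in every PBS library with counts in every DT library, and 26 (0.226%) the other way round.

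**Figure D4:**
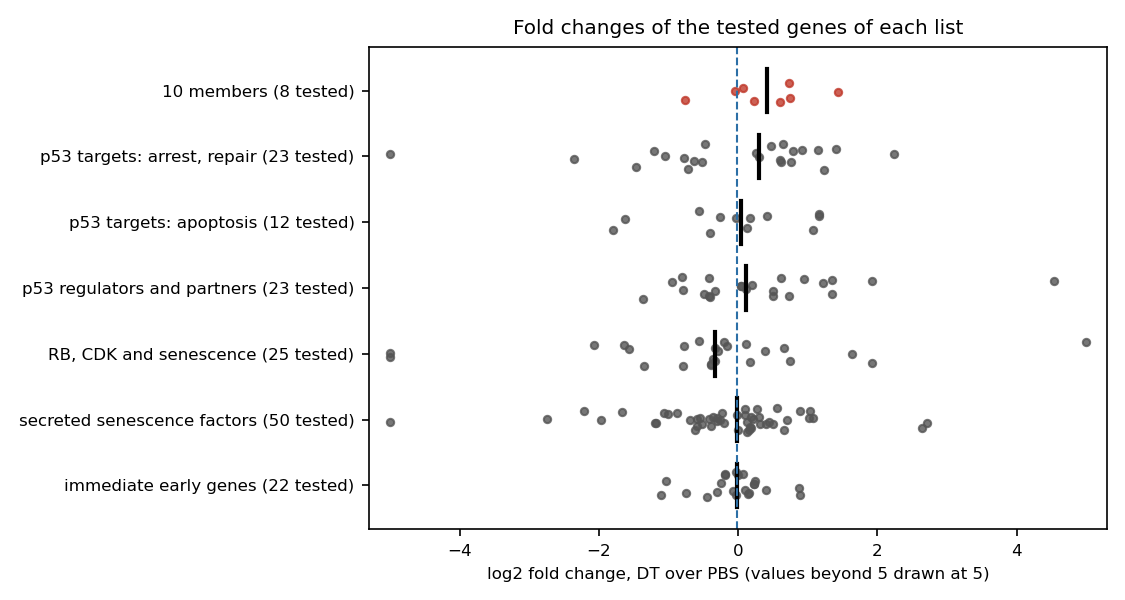
Log2 fold change of DT over PBS (horizontal axis, values beyond 5 in size drawn at 5) for the tested genes of each list, 1 point per gene, with the median of each list as a black bar and the median of all tested genes (-0.02) as a dashed line. The members have a median of 0.42 and the RB, CDK and senescence list one of -0.33, and in every list points lie on both sides of 0.

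The gene of p53 itself, Trp53, chosen after its values were seen, was read at 780, 309 and 126 counts in DT 1 to 3, against 119, 361, 67 and 8 counts in PBS 1 to 4, with overlapping groups (log2 fold change 1.35, SE 2.42, edgeR adjusted p = 1.00). Its paralogous inhibitor partner Mdm4, also chosen after its values were seen, had 211, 233 and 414 counts in DT 1 to 3, against 139, 235, 463 and 923 in PBS 1 to 4 (log2 fold change -0.79, SE 1.82, edgeR adjusted p = 1.00). Of 34 listed p53 regulators and partners 23 were tested, 14 with positive and 9 with negative fold changes, and 0 passed by edgeR, DESeq2 or limma-voom, with a median log2 fold change of 0.11. The 4 with the highest CPM were Rpl23 and Rpl11, ribosomal proteins that bind Mdm2, Npm1, which encodes nucleophosmin, and the acetyltransferase gene Crebbp. Rpl23 was at 1342 ± 447 CPM in DT and 1167 ± 209 CPM in PBS, Npm1 at 598 ± 157 CPM in DT and 421 ± 101 CPM in PBS, and Crebbp at 375 ± 83.3 CPM in DT and 470 ± 166 CPM in PBS.

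The groups did not overlap for 4 of the 23 tested genes in this list, where 6.31% of all tested genes had no overlap. Of the 4, Usp7, Huwe1 and Nbn were chosen after their values were seen. Rpl11 stood at 825, 687 and 693 CPM in DT 1 to 3, against 227, 610, 557 and 674 CPM in PBS 1 to 4. Usp7, which encodes the deubiquitinase that stabilises Mdm2 and p53, stood at 179, 120 and 93.3 CPM in DT 1 to 3, against 305, 269, 430 and 341 CPM in PBS 1 to 4. Its log2 fold change was -1.36 (SE 0.54, edgeR adjusted p = 1.00, unadjusted p = 0.0155 in the same fit), the only unadjusted p below 0.05 in the list. Huwe1, a ubiquitin ligase gene that acts on p53 and other proteins, stood at 146, 164 and 234 CPM in DT 1 to 3, against 323, 285, 315 and 342 CPM in PBS 1 to 4 (log2 fold change -0.80, SE 0.51, edgeR adjusted p = 1.00). Nbn, a DNA break sensor gene, had 41, 208 and 120 counts in DT 1 to 3, against 0, 11, 0 and 8 in PBS 1 to 4. Usp7 and Huwe1 thus had lower values in every DT library, and Rpl11 and Nbn had higher ones.

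The RB pathway, on which p21 and the INK4 proteins act, was described with cyclins, kinases and senescence-linked genes. Of 37 listed genes 25 were tested, 8 with positive and 17 with negative fold changes. By edgeR 0 passed, with 3 at an unadjusted p below 0.05, against 107 higher and 162 lower among all 7688 tested genes. DESeq2 called 1, where it called 1.43% of the genes to which it gave an adjusted p, and limma-voom called 0. The median log2 fold change was -0.33. Ccnd1, which encodes cyclin D1, was at 804 ± 270 CPM in DT and 615 ± 253 CPM in PBS, and Cdk6, a partner kinase gene of cyclin D1, at 356 ± 212 CPM in DT and 609 ± 246 CPM in PBS. Bcl2l1, a survival gene, was at 199 ± 36.8 CPM in DT and 250.1 ± 139 CPM in PBS. Ets2, which encodes a transcription factor that can induce Cdkn2a, stood at 717, 875 and 795 CPM in DT 1 to 3, against 286, 630.1, 522 and 577 CPM in PBS 1 to 4, without overlap (log2 fold change 0.66, SE 0.34, edgeR adjusted p = 1.00).

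Rb1, the retinoblastoma gene, chosen after its values were seen, had 882, 189 and 413 counts in DT 1 to 3 and 0 counts in each of the 4 PBS libraries. With Ets2 it made 2 of the 25 tested genes without overlap, where the share among all tested genes was 6.31%. It did not pass by edgeR (adjusted p = 1.00, unadjusted p = 0.00391 in the same fit) or limma-voom (adjusted p = 0.118), and it passed as higher by DESeq2 (adjusted p = 0.00131). Of the 7688 tested genes, 26 (0.338%) were at 0 in every PBS library with counts in every DT library, and 24 (0.312%) were at 0 in every DT library with counts in every PBS library. Proliferation markers, which fall in arrested cells, took 0.107% to 0.162% of DT libraries and 0.0678% to 0.161% of PBS libraries.

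The list of secreted factors of senescent cells held cytokines, growth factors and matrix enzymes, and also genes of proteins that are not secreted, such as Vcam1 and Iqgap2. Among its 74 genes 50 were tested, 25 with positive and 25 with negative fold changes. By edgeR, DESeq2 and limma-voom 0 passed, and the median log2 fold change was -0.01. In edgeR 3 had an unadjusted p below 0.05, against 107 higher and 162 lower among all 7688 tested genes. Spp1, which encodes osteopontin, was at 13745 ± 1811 CPM in DT and 11098 ± 1856 CPM in PBS, and the adhesion gene Vcam1 at 3287 ± 395 CPM in DT and 4796 ± 1601 CPM in PBS. The neutrophil chemokine genes Cxcl5 and Cxcl2 were at 2957 ± 572 CPM in DT and 2995 ± 730 CPM in PBS, and at 2679 ± 373 CPM in DT and 2500 ± 930 CPM in PBS, in that order. Of the 4, Vcam1 had the smallest unadjusted p (0.0136 by edgeR, adjusted p = 1.00).

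Il1b, the gene of interleukin 1 beta, picked once its values were known, was 1 of 4 without overlap among the 50 tested genes of the secreted factor list. The share among all tested genes was 6.31%. It had 507, 877 and 935 counts in DT 1 to 3, against 36, 16, 11 and 362 in PBS 1 to 4 (log2 fold change 2.72, SE 1.90, edgeR adjusted p = 1.00). Macrophages also make Il1b, and among PBS libraries it was highest in PBS 4, where the macrophage gene Lyz2 had 1522 counts, against 6, 8 and 0 counts in PBS 1 to 3 and 81, 69 and 330 counts in DT 1 to 3. The part of leukocyte reads in the value of Il1b was not tested.

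Immediate early genes were set beside Btg2, since dissociation of tissue can induce them. Of 25 listed, 22 were tested, 11 with positive and 11 with negative fold changes and a median log2 fold change of -0.01. By edgeR 0 passed, with 3 at an unadjusted p below 0.05, against 107 higher and 162 lower among all 7688 tested genes. Without the filter on low counts edgeR called Dusp1 (adjusted p = 0.00767) and Junb (adjusted p = 0.0199). Both DESeq2 and limma-voom called 2 of the 22 lower in DT, Dusp1 and Junb. Among all genes given an adjusted p, DESeq2 called 1.43% and limma-voom 0.156%. Dusp1 and Junb were also the 2 of 22 without overlap (6.31% of all tested genes). Dusp1, which encodes a MAP kinase phosphatase, was at 1165 ± 356 CPM in DT and 2381 ± 247 CPM in PBS, without overlap (log2 fold change -1.03, SE 0.25, adjusted p = 0.288 by edgeR, 3.66e-04 by DESeq2 and 0.00266 by limma-voom). Junb, an AP-1 factor gene picked with its values known, was at 827 CPM in DT and 1780 CPM in PBS on average (adjusted p = 0.288 by edgeR, 3.90e-04 by DESeq2 and 0.0359 by limma-voom). Klf6 was at 2447 ± 304 CPM in DT and 2095 ± 380 CPM in PBS, Ier3 at 1602 ± 456 CPM in DT and 1634 ± 254 CPM in PBS, and Egr1 at 1626 ± 193 CPM in DT and 1519 ± 234 CPM in PBS. As for Btg2, the groups of Klf6, Ier3 and Egr1 overlapped.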

How the data were processed

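Total RNA of EpCAM-positive cholangiocytes was made into 3′-end libraries with a QuantSeq FWD kit, per the labels' protocols, which reads 1 fragment near the end of a transcript. The authors deposited raw read counts per gene symbol for 7 libraries, and the submitters' processing notes name the genome build mm9. How reads were aligned, counted and annotated, with or without strand or molecular identifiers, is not given in the sources used here. Floors cover counting error only. The p-values and the intervals of fold changes rest on how far these 7 libraries vary, and that variation may be technical. In a GRCm38 annotation only Cdkn1a of the 10 genes overlapped another gene, on the opposite strand. CPM levels are not scaled by length and were not compared between genes.

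DT (n = 3) was compared with PBS (n = 4) in edgeR 4.0.16 (R 4.3.3) with TMM factors, filterByExpr (7688 genes kept) and the robust quasi-likelihood F test, two-sided, adjusted over all tested genes with a threshold of 0.05. The SE was the fold change over the root of F, and 95% intervals used the degrees of freedom of that fit. Each library was left out in turn. Other alternatives were DESeq2 1.42.0, limma-voom 3.58.1 (with sample weights), factors by upper quartile or RLE, a filter at a mean log2 CPM of 8 or none, covariates for hepatocyte or Y-linked reads, and a block for the replicate number. Leaving out DT 1 and PBS 1 together was chosen after seeing the data. The members, lists and tests were chosen with earlier results of these data known. Genes named beside the members were the 4 with the highest mean CPM of each list, the 3 most like Cdkn1a and Mdm2, and those said to be chosen after their values were seen. The marker genes Foxp3, Ptprc and Lyz2 were picked by hand. Log2 CPM values for likeness used a prior count of 2. Figures were drawn with matplotlib 3.10.9.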

Additional observations from a re-analysis of the deposited data

Results flagged for a closer look

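Among 9 genes, Cdkn2b and Phlda3 had counts in PBS 4 as the only PBS library. For Cdkn2b the gap between PBS 4 (41.5 CPM) and the next PBS library was the whole range of the group (a share of 1), since PBS 1 to 3 had 0 counts. For Phlda3 the share was also 1, with 32.2 CPM in PBS 4 and 0 counts in PBS 1 to 3. With 0 in the other libraries this share is 1 at any value in PBS 4. The rate of about 1 in 20 by which chance sets a sample apart does not hold for such groups, since values of 0 were common (43.5% at means of 100 to 200 counts and 25.6% at 200 to 500). PBS 4 was the library with the most genes read (8361).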

How the results depend on the processing

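No member passed the threshold in any of the 17 alternatives, in 1 of which Cdkn1a and Btg2 alone could be fitted. Over these alternatives Mdm2 (0.15 to 1.99) and Trp53inp1 (0.42 to 0.95) stayed positive and Gdf15 (-1.22 to -0.28) stayed negative. With the hepatocyte score the sign turned for Cdkn1a (-0.45), Zmat3 (-0.49), Ccng1 (-5.29) and Phlda3 (-3.45), while the median of all tested genes moved to -0.49. With the Y-linked covariate that median moved to 0.67, with Cdkn1a at 2.12, Ccng1 at 11.4 and Phlda3 at 9.85. Only PBS 1 shared the covariate value of the DT libraries, so these values compare DT with PBS 1 alone. Ccng1 and Phlda3 had 0 counts in PBS 1. Zmat3 turned by limma-voom (-0.49). Without DT 1 and PBS 1 together Zmat3 (-0.61) and Btg2 (0.084) turned, and Cdkn1a was at 0.65. With 1 library left out Zmat3 ran from -0.52 to 0.76, Ccng1 from -0.78 to 1.16, Btg2 from -0.21 to 0.071 and Cdkn1a from 0.14 to 0.91. Scaling by RLE or upper quartile factors turned no sign. With the replicate block, Btg2 was at 0.071, Mdm2 at 1.64 and Phlda3 at 8.76. No DT library shared the number of PBS 4, so PBS 4 did not enter the DT coefficient of that fit. Among all genes, 6 were higher and 6 lower with the block, against 0 higher and 3 lower without it. Same-numbered libraries were not treated as pairs in the main fit. Their deviations correlated at -0.0600 to 0.0251 over 733 genes, with 0 of 3 pairs over 0.1 and 1 DT library closest to its own number. With 3 pairs and deviations taken within each small group, these values cannot show that the libraries were unpaired. DESeq2 called 27 genes higher and 78 lower, limma-voom 6 and 6, and edgeR without a filter 1 and 7. The filter at a mean log2 CPM of 8 left 5 lower, and the Y-linked covariate gave 23 higher. Fits without 1 library called 0 to 1 genes higher and 1 to 4 lower. The cause of these differences in the number of genes called was not tested. Values of 0 limit what can be read for genes at lower counts: 8.15% of values were 0 at means of 500 to 1000 counts and 1.17% at 1000 to 2000.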

Other observations

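The members read in each library are set here beside all genes read there. DT 1 to 3 had counts for 6, 8 and 9 of the 10 members, with 5419, 7827 and 7920 genes read. PBS 1 to 4 had counts for 6, 7, 7 and 9 members, with 5967, 6952, 6164 and 8361 genes read. The summed level of the 10 genes was 1520, 2161 and 1459 CPM in DT 1 to 3, against 1296, 1229, 1128 and 2211 CPM in PBS 1 to 4, so that every DT library lay above PBS 1 to 3 and below PBS 4, the library with the highest sum.

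Iqgap2 and Wnt2, both on the list of secreted factors and chosen after their values were seen, also had no overlap between the groups. Iqgap2, which encodes a scaffold protein of the cytoskeleton, had 735, 333 and 234 counts in DT 1 to 3, against 0, 181, 0 and 63 in PBS 1 to 4. Wnt2, which encodes a Wnt ligand, had 10, 0 and 5 counts in DT 1 to 3, against 11, 411, 529 and 298 in PBS 1 to 4. Neither passed by edgeR (adjusted p = 1.00 for each) or DESeq2 (adjusted p = 1.00 and 0.0907).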
